A study of Mus musculus with 6 samples.

Results

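IL-2 and the receptors that share the common gamma chain were followed through 9 genes, which were the cytokine gene *Il2* and the 8 receptor chain genes *Il2ra*, *Il2rb*, *Il2rg*, *Il4ra*, *Il7r*, *Il9r*, *Il15ra* and *Il21r*, taken by name from the 56748 genes of the deposited count table. The study asked what an antisense oligonucleotide (ASO) against *Pgam*, a glycolytic enzyme, does to naïve CD4 cells on their way to regulatory T cells (Tregs). Wild-type murine cells from spleen and lymph nodes were stimulated through CD3 and CD28 for 3 days in medium with IL-2, TGF-β and blocking antibodies to IFN-γ and IL-4, and either the scrambled or the *Pgam* ASO was present. RNA was taken from the whole culture without sorting, giving 3 libraries under the label scrambled ASO and 3 under *Pgam* ASO. IL-2 protein was therefore supplied to both groups, and IL-4 protein was neutralized in both. The study calls the samples biological replicates, but no source used here says whether each came from its own animal, so p-values measure only the spread between these samples.

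Cytokines of this family act through pairs or trios of membrane chains. The common gamma chain, encoded by *Il2rg*, joins a partner chain that gives the receptor its ligand, namely *Il2rb* for IL-2 and IL-15, *Il4ra* for IL-4, *Il7r* for IL-7, *Il9r* for IL-9 and *Il21r* for IL-21, while the alpha chains of *Il2ra* (CD25) and *Il15ra* raise affinity for IL-2 and IL-15 and do not signal themselves. The chains pass the signal to the kinases JAK1 and JAK3 and on to STAT factors, mainly STAT5 for IL-2. In T cells, IL-2 is made after activation, Tregs are known for high CD25 and for making little IL-2, and the IL-7 receptor is typical of naïve and memory cells and low on Tregs.

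The ASO's targets were looked at first. *Pgam1* had 10655, 8847 and 11414 counts in scrambled ASO replicates 1, 2 and 3 and 10601, 10299 and 11949 in *Pgam* ASO replicates 1, 2 and 3. The groups overlapped (log2 fold change 0.18, standard error 0.13, Benjamini-Hochberg adjusted p = 0.331 from the quasi-likelihood test of edgeR over 14936 tested genes). *Pgam2* had 93, 125 and 46 counts against 48, 42 and 44, which also overlapped (log2 fold change -0.84, standard error 0.31, edgeR adjusted p = 0.0854). Neither transcript passed the threshold of 0.05 in the main test, though *Pgam2* was called lower with no filter on low counts (log2 fold change -0.83, edgeR adjusted p = 0.0292) and without scrambled ASO replicate 3 (log2 fold change -1.11, edgeR adjusted p = 0.0144). The log2 fold change of *Pgam2* was negative in every setting run. It was nearer to no change in some, at -0.56 without scrambled ASO replicate 2 (edgeR adjusted p = 0.286) and -0.77 with limma-voom (adjusted p = 0.134). PGAM protein was not analysed here. The groups are named by their labels, and every direction below is that of the libraries labelled *Pgam* ASO. Total counts per library ran from 16231127 to 18032805 with the scrambled ASO and from 15860476 to 16803881 with the *Pgam* ASO.

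*Il2* (ENSMUSG00000027720), the gene for the cytokine itself, lies on chromosome 3 from 37120523 to 37125959 of GRCm38. It had 43, 16 and 21 counts with the scrambled ASO and 491, 270 and 205 with the *Pgam* ASO. Scaled by TMM to CPM, which are counts set to a common library size, that was 2.42, 0.864 and 1.3 CPM against 30.5, 17.3 and 12.1 CPM. Every *Pgam* ASO library was above every scrambled ASO library, though the libraries of each group spread widely, with replicate 1 highest in both. The mean was 1.53 ± 0.802 against 20 ± 9.47 CPM (SD, n = 3 each), a 13.1-fold rise (log2 fold change 3.70, standard error 0.46, edgeR adjusted p = 0.00335). *Il2* shares 14.2% of its 31-base stretches with *Ntan1*, a gene of protein turnover, and Kallisto has to divide reads that match both. *Ntan1* itself had 733, 796 and 620 counts against 657, 609 and 725 (log2 fold change 0.0013, standard error 0.093, edgeR adjusted p = 0.993). When the counts of both genes were summed, the log2 fold change of the sum was 0.52 (edgeR adjusted p = 0.0175), and over all settings run for *Il2* the adjusted p lay between 2.27e-18 and 0.0219.

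Because *Il2* and *Il2ra* rose together, the 250 bases before their RefSeq starts are shown (GRCm38.p6, each on its gene's strand, 5′ to 3′). Of the 9 members 8 matched the RefSeq promoter table, with 9 windows, *Il2rb* being the exception. Motifs were searched on both strands as TGANTCA (AP-1), GGAAAA (the core bound by NFAT) and TTCNNNGAA (STAT), of which the last pair can overlap, and capitals mark every match. The window of *Il2* spans chr3:37125955-37126204 on the minus strand and that of *Il2ra* spans chr2:11642542-11642791 on the plus strand.
*Il2*: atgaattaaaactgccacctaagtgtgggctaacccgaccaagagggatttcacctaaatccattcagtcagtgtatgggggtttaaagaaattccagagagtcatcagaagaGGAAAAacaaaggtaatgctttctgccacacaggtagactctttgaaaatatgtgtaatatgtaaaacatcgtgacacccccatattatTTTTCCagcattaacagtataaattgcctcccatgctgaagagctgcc
*Il2ra*: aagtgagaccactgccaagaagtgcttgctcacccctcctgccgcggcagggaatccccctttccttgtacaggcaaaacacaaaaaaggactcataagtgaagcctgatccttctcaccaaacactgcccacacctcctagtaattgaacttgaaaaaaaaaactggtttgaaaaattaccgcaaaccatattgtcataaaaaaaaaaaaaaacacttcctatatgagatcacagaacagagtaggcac
The *Il2* window held 2 matches to GGAAAA, which began 137 and 48 bases before the start, the second on the opposite strand, and none to the other motifs. That of *Il2ra* held none of the 3. Over all 32851 windows of this length, GGAAAA was found in 20.4%, TGANTCA in 6.75% and TTCNNNGAA in 7.02%. Among the 9 windows of the members, the counts were 3, 1 and 1. Apart from *Il2*, GGAAAA was found in a window of *Il15ra* and in that of *Il7r*, both called lower. The AP-1 match was in another window of *Il15ra* and the STAT match in that of *Il7r*. The window of *Il4ra*, which was called higher, held none of the 3 motifs. A match describes letters only, and no binding was measured.

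*Il2ra* (ENSMUSG00000026770), on chromosome 2 from 11642807 to 11693193, encodes the alpha chain of the IL-2 receptor. It had 34579, 30126 and 35759 counts with the scrambled ASO and 46820, 45201 and 42158 with the *Pgam* ASO, or 1946, 1627 and 2216 CPM against 2908, 2900 and 2495 CPM. The groups did not overlap, and the lowest *Pgam* ASO library, replicate 3, stood above the highest scrambled ASO library, also replicate 3. The mean rose 1.43-fold, from 1929 ± 295 to 2768 ± 236 CPM (SD, n = 3 each) (log2 fold change 0.52, standard error 0.12, edgeR adjusted p = 0.0185). This call depended on single libraries: the edgeR adjusted p was 0.0725 without scrambled ASO replicate 1, 0.0639 without *Pgam* ASO replicate 1 and 0.0967 without *Pgam* ASO replicate 2, with log2 fold changes of 0.52, 0.49 and 0.49. Over all settings it ran from 1.43e-06 to 0.0967.

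The signalling chains of the IL-2 receptor were not called. *Il2rb* (ENSMUSG00000068227, chromosome 15 from 78479256 to 78495271), which encodes the beta chain shared by IL-2 and IL-15, had 852, 754 and 858 CPM with the scrambled ASO and 1036, 968 and 917 CPM with the *Pgam* ASO. The groups did not overlap, but the log2 fold change of 0.25 (standard error 0.087) did not pass (edgeR adjusted p = 0.0743). *Il2rg* (ENSMUSG00000031304, chromosome X from 101264378 to 101268255), the gene of the common gamma chain, had 300, 318 and 293 CPM against 273, 262 and 263 CPM. Here too the groups did not overlap, with every *Pgam* ASO library below, and the log2 fold change of -0.19 (standard error 0.077) did not pass (edgeR adjusted p = 0.108). *Il2rg* shares 28.7% of its stretches with the overlapping gene *Gm20489*, which had 3 counts over the 6 libraries.

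**Figure D1:**
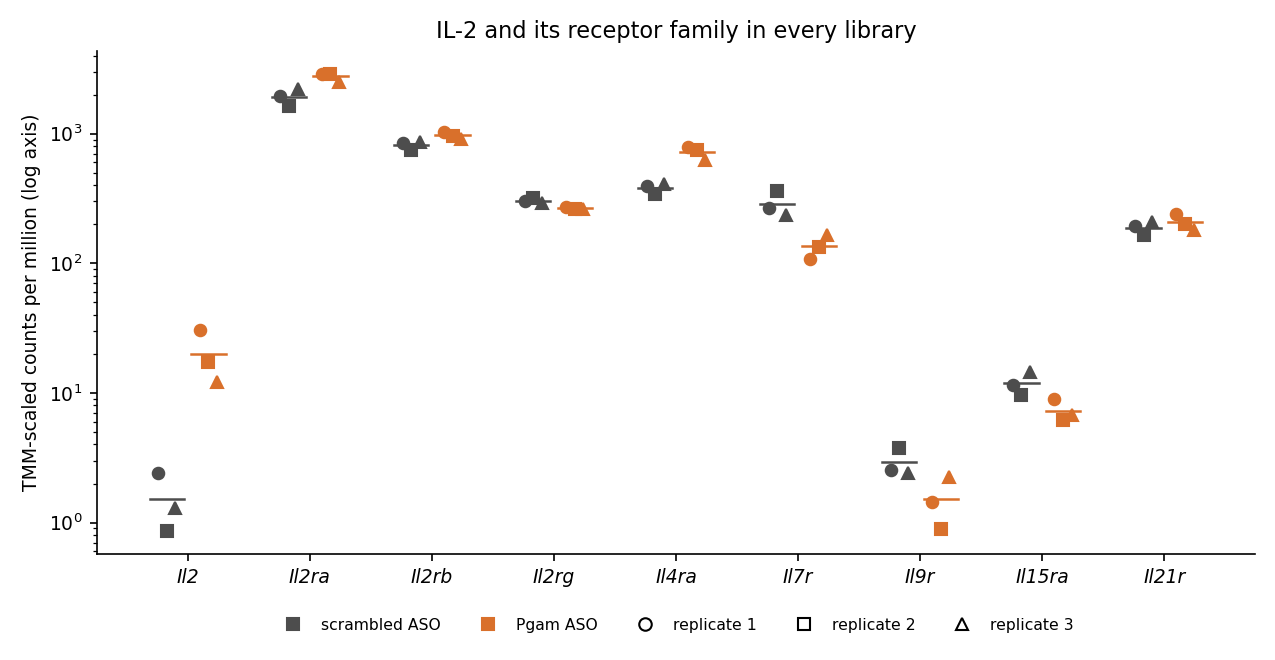
TMM-scaled CPM on a log axis for the 9 genes in each of 6 libraries, grey for scrambled ASO and orange for *Pgam* ASO, with a marker for each replicate number and a line at each group's mean. *Il2* stands between 0.864 and 2.42 CPM in the scrambled ASO libraries and between 12.1 and 30.5 CPM in the *Pgam* ASO libraries, while *Il21r* is the only one of the 9 whose groups overlap.

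*Il4ra* (ENSMUSG00000030748, chromosome 7 from 125552120 to 125579474) encodes the chain that binds IL-4 and, in another receptor, takes part in the response to IL-13. It had 7065, 6316 and 6552 counts with the scrambled ASO and 12770, 11586 and 10667 with the *Pgam* ASO, or 398, 341 and 406 CPM against 793, 743 and 631 CPM. All *Pgam* ASO libraries lay well above all scrambled ASO libraries. The mean rose 1.89-fold, from 382 ± 35.3 to 723 ± 83 CPM (SD, n = 3 each) (log2 fold change 0.92, standard error 0.11, edgeR adjusted p = 0.0012). The antisense gene *Gm44876* lies inside *Il4ra* and shares 8.86% of its stretches, but it had 159 counts over the 6 libraries. *Il21r* (ENSMUSG00000030745, chromosome 7 from 125603429 to 125633570), the IL-21 receptor gene next to *Il4ra*, had 193, 164 and 207 CPM against 238, 200 and 182 CPM. Its groups overlapped (log2 fold change 0.14, standard error 0.12, edgeR adjusted p = 0.453).

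*Il7r* (ENSMUSG00000003882, chromosome 15 from 9505788 to 9530176), the gene of the IL-7 receptor alpha chain (CD127), had 4747, 6719 and 3819 counts with the scrambled ASO and 1733, 2096 and 2793 with the *Pgam* ASO, or 267, 363 and 237 CPM against 108, 134 and 165 CPM. The groups did not overlap. Scrambled ASO replicate 2 was the highest of the 6 and *Pgam* ASO replicate 1 the lowest. The mean fell 2.13-fold, from 289 ± 65.9 to 136 ± 28.8 CPM (SD, n = 3 each) (log2 fold change -1.09, standard error 0.19, edgeR adjusted p = 0.0116). Without *Pgam* ASO replicate 2 the log2 fold change was -1.08 and the edgeR adjusted p was 0.0592, the highest of a range that began at 4.92e-20.

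The other receptor chains were scarce. *Il15ra* (ENSMUSG00000023206, chromosome 2 from 11705290 to 11734317), whose product holds IL-15 for presentation to other cells, had 205, 178 and 236 counts with the scrambled ASO and 144, 96 and 115 with the *Pgam* ASO. On the CPM scale that was 11.5, 9.61 and 14.6 against 8.94, 6.16 and 6.8, without overlap, though the nearest libraries, scrambled ASO replicate 2 and *Pgam* ASO replicate 1, were close. The mean fell from 11.9 ± 2.53 to 7.3 ± 1.46 CPM (SD, n = 3 each) (log2 fold change -0.70, standard error 0.21, edgeR adjusted p = 0.0439). This was the weakest of the calls, since the adjusted p was 0.0516 with limma-voom and, in edgeR, 0.11 without scrambled ASO replicate 1, 0.0996 without scrambled ASO replicate 3, 0.17 without *Pgam* ASO replicate 2 and 0.0802 without *Pgam* ASO replicate 3, in a range from 0.00491 to 0.17. *Il9r* (ENSMUSG00000020279, chromosome 11 from 32187541 to 32200279), the IL-9 receptor gene, had 45, 70 and 39 counts against 23, 14 and 38. Scaled to depth, these were 2.53, 3.78 and 2.42 CPM against 1.43, 0.898 and 2.25 CPM, so that *Pgam* ASO replicate 3 nearly reached the lowest scrambled ASO library. The log2 fold change of -0.93 (standard error 0.37) did not pass (edgeR adjusted p = 0.103), but without *Pgam* ASO replicate 3 it was -1.31 (edgeR adjusted p = 0.0367), in a range of adjusted p from 0.0367 to 0.297.

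All 9 genes passed the filter on low counts, and 5 of them had an edgeR adjusted p under 0.05. *Il2*, *Il2ra* and *Il4ra* were the 3 that rose and *Il7r* and *Il15ra* the 2 that fell. Among all 14936 tested genes, 17.2% were called, 8.03% higher and 9.15% lower. The groups did not overlap for 8 of the 9 members, and for 39.5% of all tested genes. The members too were chosen with earlier results of these data known. Without *Pgam* ASO replicate 2, 2 of the 9 were called (*Il2* and *Il4ra*) and 391 genes in all, against 2565 with all 6 libraries, and without scrambled ASO replicate 1, 3 of the 9 (*Il2*, *Il4ra* and *Il7r*) and 620 genes in all. The number of all called genes was 1256 without scrambled ASO replicate 2 and 871 without *Pgam* ASO replicate 1. Each library holds the RNA of a whole culture, so fewer cells of a type and less RNA per cell cannot be told apart.

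Levels of different genes were compared per length, as TPM, which divide each count by the median transcript length of its gene and scale every library to the same sum. With the scrambled ASO, *Il2ra* led at 1397 ± 167 TPM (SD, n = 3), followed by *Il2rb* at 531 ± 25.3 and *Il2rg* at 359 ± 27.2 (TPM, SD, n = 3). *Il7r*, *Il21r* and *Il4ra* came next at 162 ± 42.3, 159 ± 13.7 and 143 ± 9.44 TPM (SD, n = 3), and *Il7r* did not stand apart from the other 2, since its spread was wider than its distance to either. *Il15ra* was far lower at 15.1 ± 2.68 TPM, and *Il9r* (3.28 ± 0.957 TPM) and *Il2* (2.63 ± 1.38 TPM) were last and within their spread of each other (SD, n = 3). Levels relative to *Il2rg* are means of the ratios within each library, here and in the next paragraph. The alpha chain transcript of the IL-2 receptor was present at 3.93 times the level of the common gamma chain transcript, and the beta chain transcript at 1.49 times.

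With the *Pgam* ASO the top 3 kept their order, at 1946 ± 135 TPM for *Il2ra*, 610 ± 28 for *Il2rb* and 304 ± 5.62 for *Il2rg* (TPM, SD, n = 3). The levels relative to *Il2rg* were 6.4 times for *Il2ra* and 2.01 times for *Il2rb*. *Il4ra*, sixth of the 9 with the scrambled ASO, was in position 4 at 262 ± 25.8 TPM, and *Il7r* moved from position 4 to position 6 at 73.7 ± 16.9 TPM, with *Il21r* between them at 170 ± 21.2 TPM (SD, n = 3). The positions with the scrambled ASO are those of means within the spread of *Il7r*, which was below *Il4ra* in scrambled ASO replicate 3 (127 against 147 TPM). *Il2*, last of the 9 with the scrambled ASO, reached 33.2 ± 15.3 TPM and stood above *Il15ra* (9.01 ± 1.71 TPM) and *Il9r* (1.66 ± 0.769 TPM; SD, n = 3). Lengths matter for these comparisons between genes. The summed length of all exons, in place of the median transcript, was an alternative chosen after seeing the data. With it, *Il2ra* was at 2.05 times *Il2rg* with the scrambled ASO and at 3.34 times with the *Pgam* ASO. *Il2rb* (465 ± 21.5 TPM) and *Il2rg* (442 ± 34.4 TPM) were then within their spread with the scrambled ASO (SD, n = 3). The mean of *Il9r* (1.58 ± 0.463 TPM) was then below that of *Il2* (3.24 ± 1.71 TPM) with the scrambled ASO as well (SD, n = 3). These means were within their spread, and *Il9r* was above *Il2* in scrambled ASO replicate 2 (2.11 against 1.9 TPM).

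**Figure D2:**
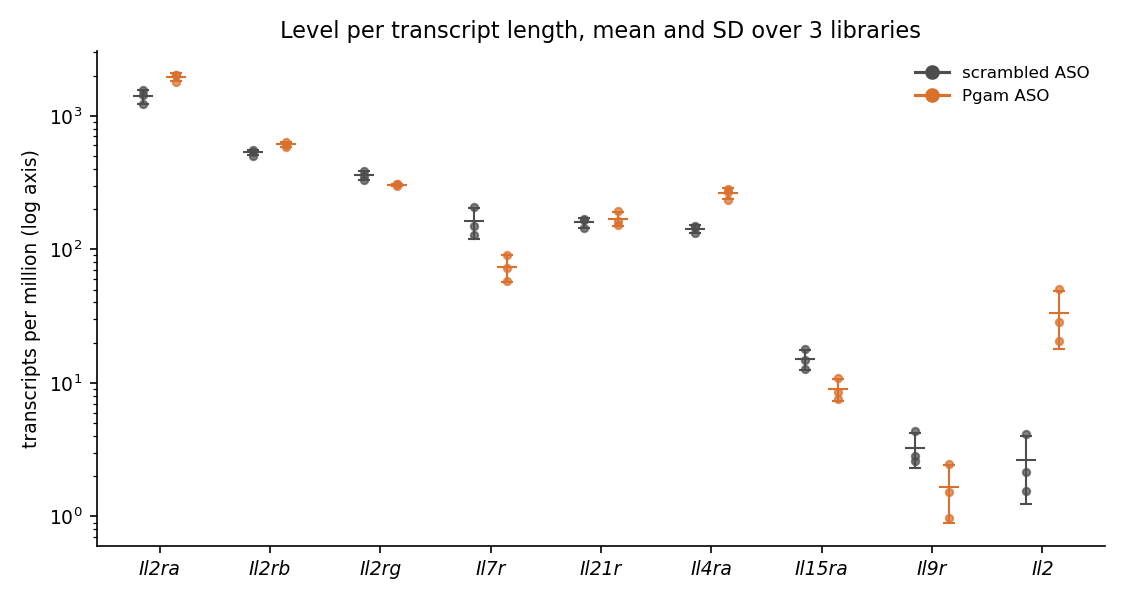
TPM on a log axis for the 9 genes, ordered by their mean in the scrambled ASO libraries, with a point for each library and bars for mean ± SD (n = 3; grey scrambled ASO, orange *Pgam* ASO). *Il2ra*, *Il2rb* and *Il2rg* are the 3 highest in both groups, and *Il4ra* is above *Il7r* in every *Pgam* ASO library, while the points of the scrambled ASO libraries overlap for these genes.

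The partner chains compete for the common gamma chain at the cell surface, so their transcripts were also expressed as shares of their summed TPM in each library. *Il2rb* held 54.3%, 50.7% and 54.5% with the scrambled ASO and 54.4%, 54.4% and 55% with the *Pgam* ASO, a share that overlapped between the groups. *Il4ra* held 14.7%, 13.3% and 14.9% against 24.1%, 24.2% and 21.9%. *Il7r* held 14.7%, 21.1% and 13% against 4.88%, 6.52% and 8.56%. The shares of *Il4ra* and *Il7r* did not overlap between the groups and moved in opposite directions, on average from 14.3% ± 0.882 to 23.4% ± 1.29 for *Il4ra* and from 16.2% ± 4.27 to 6.65% ± 1.84 for *Il7r* (SD, n = 3). *Il21r* held 16% ± 1.41 against 15.2% ± 1.12 and *Il9r* 0.329% ± 0.0972 against 0.15% ± 0.0752 (SD, n = 3). The partner chains together amounted to 2.87, 2.57 and 2.95 times the level of *Il2rg* in the scrambled ASO libraries and to 3.82, 3.72 and 3.48 times in the *Pgam* ASO libraries. These are transcripts, and no protein at the surface was measured here.

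**Figure D3:**
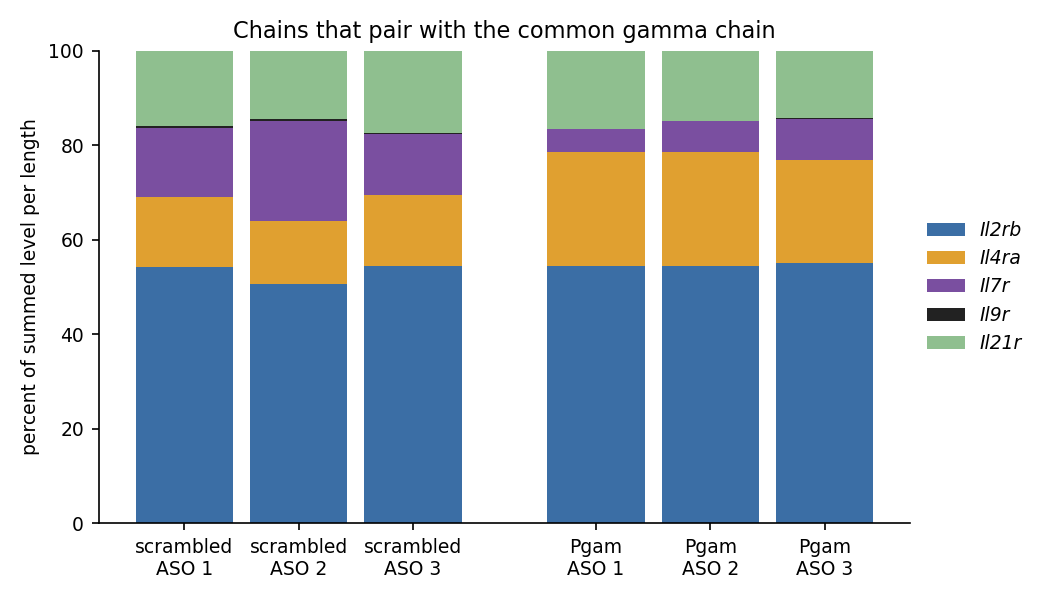
Stacked bars of the percent of summed TPM held by *Il2rb*, *Il4ra*, *Il7r*, *Il9r* and *Il21r* in each of 6 libraries. *Il2rb* holds between 50.7% and 55% in every library, the *Il4ra* part is wider and the *Il7r* part narrower in the *Pgam* ASO libraries, and *Il9r* is too thin to see in most bars.

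Ratios between chains within a library need no scaling between libraries. Counts of *Il2ra* over *Il2rg* were 6.49, 5.12 and 7.56 with the scrambled ASO and 10.6, 11.1 and 9.49 with the *Pgam* ASO. *Il4ra* over *Il2rg* was 1.33, 1.07 and 1.39 against 2.9, 2.84 and 2.4. *Il7r* over *Il2ra* was 0.137, 0.223 and 0.107 against 0.037, 0.0464 and 0.0663. All 3 ratios separated the groups, by log2 differences of 0.72, 1.11 and -1.62. The same was seen for *Il2ra* over *Il2rb* (log2 difference 0.28), *Il2rb* over *Il2rg* (0.44) and *Il7r* over *Il2rg* (-0.90), but not for *Il21r* over *Il2rg* (0.32), whose groups overlapped. In a two-sided exact permutation test over libraries, 6 of the 7 ratios had p = 0.1, which is the smallest that 3 against 3 libraries allow, and adjusted p = 0.117 over the 7; the *Il21r* ratio had p = 0.2. No ratio could pass 0.05 in this test, however large its difference, and no other test of the ratios was run.

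Other cytokines that signal through the common gamma chain were read from the same table. *Il4*, the type 2 cytokine and B cell factor, had 37, 20 and 28 counts with the scrambled ASO and 205, 189 and 126 with the *Pgam* ASO. *Il9*, a growth factor for mast cells, had 101, 32 and 125 counts against 518, 414 and 324. *Il21*, which helps B cells and lies 96.8 kb from *Il2*, had 38, 14 and 40 against 254, 155 and 88. For each of these 3 genes every *Pgam* ASO library was above every scrambled ASO library, as for *Il2*. The log2 fold changes were 2.72 for *Il4* (standard error 0.30, edgeR adjusted p = 0.000953), 2.37 for *Il9* (standard error 0.47, edgeR adjusted p = 0.022) and 2.53 for *Il21* (standard error 0.50, edgeR adjusted p = 0.0157). *Il4* was called with each library left out in turn; the highest edgeR adjusted p was 0.0821 for *Il9* and 0.0632 for *Il21*, both without *Pgam* ASO replicate 2, and with no filter on low counts that of *Il9* was 0.101. Without scrambled ASO replicate 1 neither was called, and without *Pgam* ASO replicate 1 *Il9* was not. *Il7* and *Il15*, cytokines made mainly by stromal and myeloid cells, were not tested: *Il7* had 1 count in scrambled ASO replicate 3 and 0 in the others, and *Il15* had 4 and 13 counts in *Pgam* ASO replicates 2 and 3 and 0 in the others. A count of 0 allows up to 3 counts, or between 0.166 and 0.189 CPM in these libraries, for counting error only. The transcripts for both IL-4 and its receptor chain were thus higher in the libraries labelled *Pgam* ASO, in a medium in which IL-4 protein was neutralized. Some mast cell and basophil markers were also higher, and *Kit* was lower, as given below. The part of those cells in the cytokine values was not tested.

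A list of further receptor chains held 3 genes. *Crlf2*, the receptor of TSLP, had 43.7, 47.5 and 41.9 CPM against 45.7, 37.9 and 43.6 CPM, which overlapped (log2 fold change -0.066, edgeR adjusted p = 0.684). *Il13ra1* had between 1 and 3 counts per library and *Il13ra2* 0 in all 6, and neither was tested.

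Downstream of the receptors, 1 of 9 JAK and STAT genes passed in the main test. With library size alone, or without scrambled ASO replicate 3 or *Pgam* ASO replicate 3, 2 of the 9 were called lower. *Jak1*, the kinase bound by the partner chains, had 424, 491 and 360 CPM with the scrambled ASO and 310, 328 and 334 CPM with the *Pgam* ASO, without overlap (log2 fold change -0.39, edgeR adjusted p = 0.0381). It was not called when scrambled ASO replicate 1 or 2 or *Pgam* ASO replicate 1 or 2 was left out (highest edgeR adjusted p = 0.135, without *Pgam* ASO replicate 2), nor with replicate number as a block (edgeR adjusted p = 0.0775). The median of the 9 was -0.12, beside -0.0061 over all tested genes. *Jak3*, whose product binds the common gamma chain, had the highest mean of the list, 581 CPM over the 6 libraries, and did not pass (log2 fold change -0.23, edgeR adjusted p = 0.0929).

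Of 6 feedback inhibitors, 2 rose and 1 fell, with a median log2 fold change of 0.24. *Socs1*, which blocks JAK kinases and is itself induced by cytokines, had 162, 105 and 169 CPM against 271, 253 and 237 CPM, without overlap (log2 fold change 0.80, edgeR adjusted p = 0.0147). *Cish*, a STAT5-induced inhibitor of IL-2 signalling, had 383, 310 and 380 CPM against 460, 447 and 467 CPM (log2 fold change 0.36, edgeR adjusted p = 0.033). *Socs3*, known as the inhibitor of IL-6 and STAT3 signalling, went the other way, with 96.3, 77.1 and 69.3 CPM against 44.8, 45.4 and 66.4 CPM (log2 fold change -0.63, edgeR adjusted p = 0.0375). Without *Pgam* ASO replicate 2 none of the 3 was called, with edgeR adjusted p-values of 0.0674 for *Socs1*, 0.115 for *Cish* and 0.141 for *Socs3*. *Socs1* lost its call without that library only, but *Cish* lost it without 5 of the 6 libraries in turn and *Socs3* without 4, and both lost it with the replicate block (edgeR adjusted p = 0.0659 and 0.0707).

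Among 16 genes known to respond to IL-2 and STAT5, 3 rose and 1 fell, with a median of -0.067. *Pim2*, a survival kinase, fell most evenly, from 135, 129 and 139 CPM to 68.6, 66 and 64.5 CPM (log2 fold change -1.01, edgeR adjusted p = 0.000251), and was called with each library left out. The anti-apoptotic gene *Bcl2* had 166, 155 and 187 CPM against 189, 260 and 315 CPM, so that the groups nearly met (log2 fold change 0.59, edgeR adjusted p = 0.0419). *Nfil3*, a transcription factor, and *Ccnd3*, a G1 cyclin, had log2 fold changes of 0.53 (edgeR adjusted p = 0.0242) and 0.44 (edgeR adjusted p = 0.0488). These 3 calls each ended without at least 4 of the 6 libraries in turn, the highest edgeR adjusted p being 0.187 for *Bcl2* without scrambled ASO replicate 2, and 0.098 for *Nfil3* and 0.143 for *Ccnd3* without scrambled ASO replicate 1. *Bcl2* and *Ccnd3* also lost their calls with library size alone (edgeR adjusted p = 0.0616 and 0.0543), and *Ccnd3* with at least 10 counts in every library. The 4 genes that moved do not form one direction, and the other 12, which include *Myc*, *Ccnd2*, *Icos* and *Ctla4*, were not called in the main test. Of these 12, *Ctla4* passed with DESeq2 as lower (adjusted p = 0.0427) and *Osm* as higher (adjusted p = 0.0248).

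Transcription factors known to act on *Il2* were taken as lists of 14 activators and 9 repressors. Among the activators 2 rose and 4 fell, with a median of -0.093. The NF-κB subunit gene *Rel*, whose product c-Rel is needed for *Il2* induction, fell from 168, 172 and 161 CPM to 107, 94.8 and 92.6 CPM (log2 fold change -0.77, edgeR adjusted p = 0.000967). *Jun*, a part of AP-1, fell from 65.9, 54.3 and 60.3 CPM to 29.3, 34 and 30.1 CPM (log2 fold change -0.95, edgeR adjusted p = 0.00101). Both were called with each library left out, and both moved opposite to *Il2*. The calls of *Fos* (log2 fold change 1.13) and *Nfatc2* (0.26), higher, and of *Nfatc3* (-0.36) and *Rela* (-0.28), lower, each ended without at least 4 of the 6 libraries in turn, with highest edgeR adjusted p-values of 0.156, 0.149, 0.124 and 0.177; for *Nfatc2* the last was reached without scrambled ASO replicate 1 and for the others without *Pgam* ASO replicate 2. The replicate block ended these 4 calls too, with edgeR adjusted p-values of 0.105, 0.12, 0.0765 and 0.106.

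Of the repressors 2 rose and 2 fell, with a median of -0.21. *Ikzf3*, the gene of Aiolos, which silences *Il2*, fell from 96.3, 147 and 61.3 CPM to 13.2, 15.7 and 23.3 CPM (log2 fold change -2.54, edgeR adjusted p = 0.0122). *Foxp3*, the factor that defines Tregs and holds *Il2* down while promoting *Il2ra*, fell from 282, 371 and 222 CPM to 89.7, 109 and 131 CPM (log2 fold change -1.41, edgeR adjusted p = 0.00567). In both, as in *Il7r*, scrambled ASO replicate 2 was the highest library and *Pgam* ASO replicate 1 the lowest. *Egr2* and *Egr3*, activation-induced factors that restrain T cells, rose with log2 fold changes of 0.85 (edgeR adjusted p = 0.0457) and 0.48 (edgeR adjusted p = 0.0334). *Foxp3* kept its call with each library left out, while *Ikzf3* reached an edgeR adjusted p of 0.0602 without *Pgam* ASO replicate 2, *Egr2* 0.149 without scrambled ASO replicate 2 and *Egr3* 0.133 without *Pgam* ASO replicate 2. The calls of *Egr2* and *Egr3* ended with any library but *Pgam* ASO replicate 3 left out.

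*Il7r* transcription is known to be driven by FOXO1, GABPα, ETS1 and RUNX1 and held down by GFI1, with FOXP1 opposing FOXO1. Of these 6 genes, 1 rose and 2 fell (median -0.24). *Gfi1* rose from 93.7, 68.4 and 98.9 CPM to 191, 149 and 141 CPM (log2 fold change 0.88, edgeR adjusted p = 0.00887). *Foxp1* fell from 202, 247 and 170 CPM to 73, 90 and 101 CPM (log2 fold change -1.23, edgeR adjusted p = 0.00186). *Foxo1* fell from 167, 220 and 135 CPM to 93.4, 94.3 and 105 CPM (log2 fold change -0.84, edgeR adjusted p = 0.0114), and only this one of the 3 calls ended with a library left out (edgeR adjusted p = 0.0681 without *Pgam* ASO replicate 2). In the main test *Il7r* thus fell together with a known activator and a known repressor of its transcription, while another known repressor rose. *Ets1*, another known activator, overlapped between the groups (log2 fold change -0.47, edgeR adjusted p = 0.0697) but passed as lower with DESeq2 (adjusted p = 0.019).

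Of 7 genes that, like *Il7r*, are high in naïve T cells, 4 were called lower, 3 were not called and none was called higher. *Ccr7*, the lymph node homing receptor, fell from 802, 819 and 888 CPM to 202, 212 and 273 CPM (log2 fold change -1.87, edgeR adjusted p = 9.27e-05). *Tcf7* and *S1pr1* fell by 1.19 and 0.84 on the log2 scale (edgeR adjusted p = 0.0298 and 0.0483). *Ccr7* was called with each library left out, and the highest edgeR adjusted p was 0.11 for *Tcf7* without *Pgam* ASO replicate 2 and 0.147 for *S1pr1* without *Pgam* ASO replicate 1. With no filter on low counts *Tcf7* did not pass (edgeR adjusted p = 0.12), and with the replicate block neither *Tcf7* nor *S1pr1* did (edgeR adjusted p = 0.0574 and 0.0659). Over the 9 pathway lists, 70 of 74 genes were tested, of which 13 rose and 15 fell, 40% in all beside 17.2% of all tested genes, and 8 of the 28 stayed called with each library left out. The lists were chosen with earlier results of these data known, which can raise their called share.

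**Figure D4:**
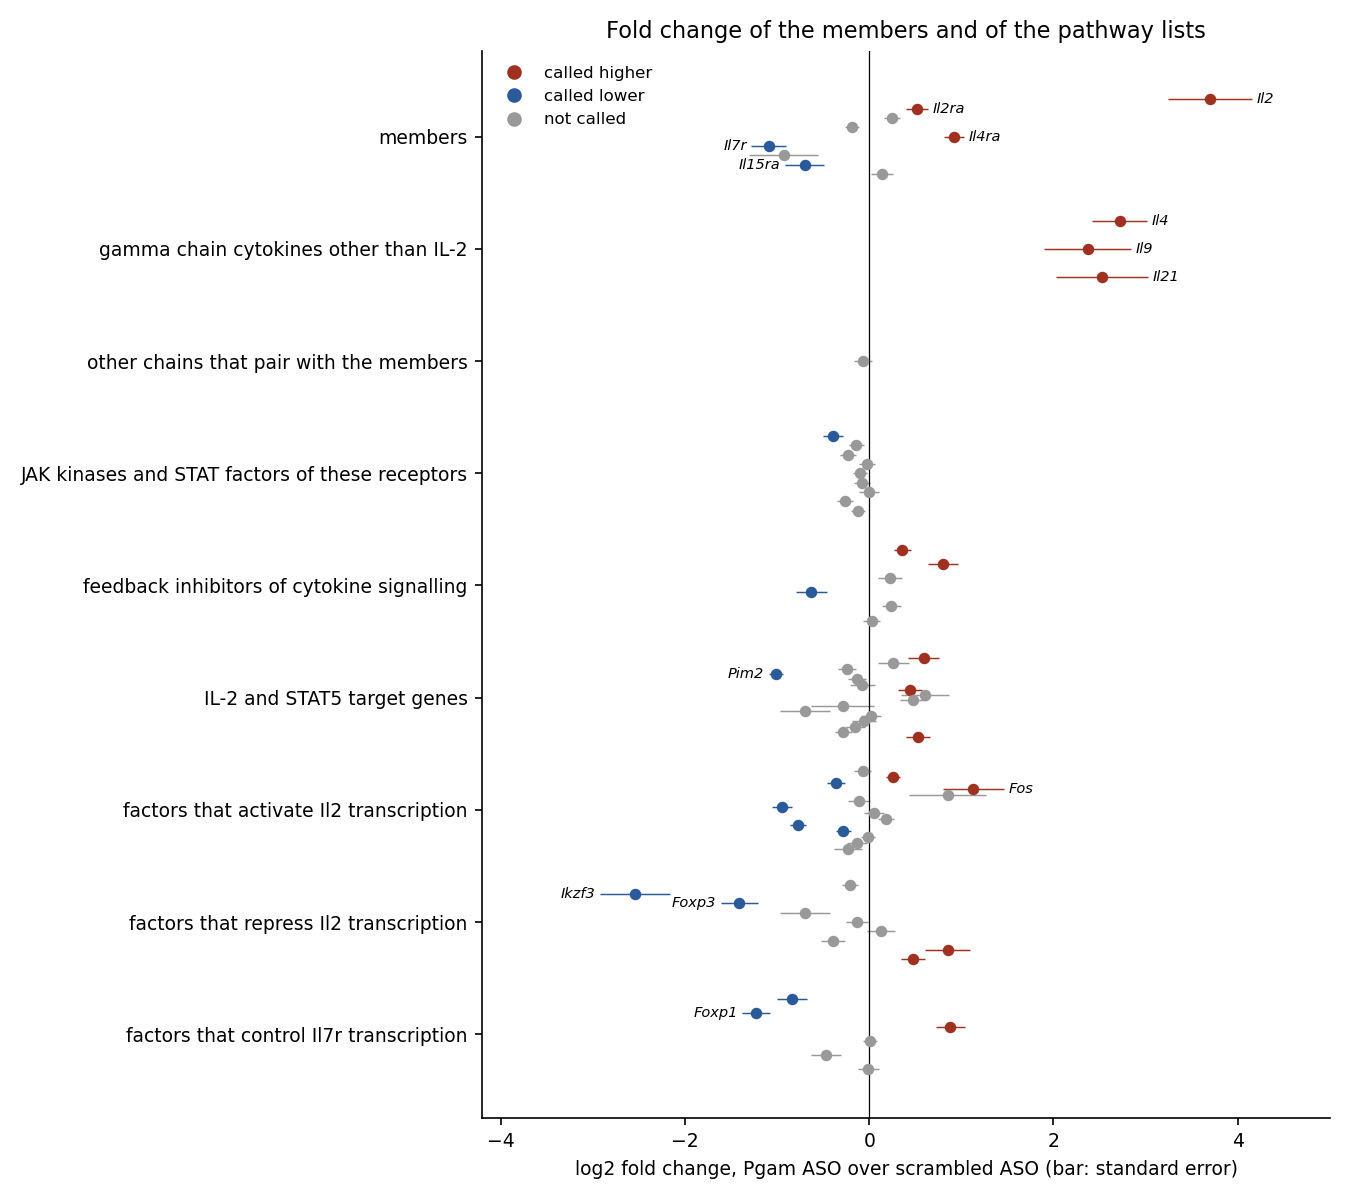
Log2 fold change of *Pgam* ASO over scrambled ASO libraries (horizontal axis; point and standard error, n = 3 a group) for the 9 members and the tested genes of 8 pathway lists (vertical axis; naïve T cell genes not drawn), red for an edgeR adjusted p under 0.05 and higher, blue for lower and grey for not called; members that were called and listed genes beyond a log2 fold change of 1 are named. *Il2*, *Il4*, *Il9* and *Il21* stand apart to the right, between 2.37 and 3.70, and most JAK and STAT genes lie close to 0.

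Several members are close neighbours in the genome. *Il15ra* starts 12.1 kb after *Il2ra* ends and fell while *Il2ra* rose, and *Il21r* starts 24 kb after *Il4ra* and was not called while *Il4ra* rose. Of the 16 nearest tested genes that are not members, 4 were higher, 2 lower and 10 not called, so that 37.5% were called beside 17.2% of all tested genes. *Il21*, on 1 side of *Il2*, rose as given above. On the other side *Adad1*, on the opposite strand, overlaps the end of *Il2* and had 1, 1 and 2 counts against 28, 19 and 11 (log2 fold change 3.85, edgeR adjusted p = 0.00675). *Gm37881*, annotated inside *Il2ra* on the same strand, moved nearly as *Il2ra* did (log2 fold change 0.56, edgeR adjusted p = 0.0487), but its call was lost with limma-voom, library size alone, at least 10 counts in every library, the replicate block and 4 of the 6 libraries left out in turn (highest edgeR adjusted p = 0.165). Neither is among the 3 genes that share the most stretches with *Il2* or with *Il2ra*. Whether reads of unspliced or longer RNA of *Il2* and *Il2ra* were counted for these overlapping genes was not tested. *Nsmce1*, 60524 bases before *Il4ra*, rose (log2 fold change 0.49, edgeR adjusted p = 0.0108). *C1qtnf6* beside *Il2rb* and *Nsg2* beside *Il9r* fell, with log2 fold changes of -0.95 (edgeR adjusted p = 0.00952) and -1.67 (edgeR adjusted p = 0.0243). Without *Pgam* ASO replicate 2 none of these 3 was called, with edgeR adjusted p-values of 0.0672 for *Nsmce1*, 0.0632 for *C1qtnf6* and 0.0877 for *Nsg2*, nor without scrambled ASO replicate 1, and *Nsg2* was not called without scrambled ASO replicate 2 or with no filter on low counts either (edgeR adjusted p = 0.0742 and 0.107).

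Genes with the most similar pattern were sought for *Il2*, *Il2ra* and *Il7r* by Pearson r of log2 CPM over the 6 libraries, among 11920 other genes. Nearest to *Il2* were *Car12*, *Nelfcd*, *Ccdc25*, *Exosc5* and *Akt1*, with r from 0.9933 to 0.9980. Nearest to *Il2ra* were *Myo5a* and *Emd* (0.9994 and 0.9989), and nearest to *Il7r* were *Irf2*, *Zfc3h1*, *Tnfrsf14*, *Pcmtd2* and *Ezh1* (0.9990 to 0.9995). The 6 libraries form 2 groups, so a high r mostly reflects the difference between the groups: r exceeded 0.95 for 387 genes with *Il2*, 1034 with *Il2ra* and 933 with *Il7r*. The 5 genes nearest to *Il2* had log2 fold changes from 0.20 for *Exosc5*, which was not called (edgeR adjusted p = 0.113), to 0.72 for *Car12*, beside 3.70 for *Il2*.

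Markers of the cells in the cultures were read beside these values. The 8 T cell markers summed to 3134, 3368 and 2930 CPM with the scrambled ASO and 2518, 2547 and 2672 CPM with the *Pgam* ASO, led by *Cd4* with a mean of 718 CPM, and *Trac*, *Cd5* and *Cd28* fell while none of the 8 rose. *Cd28* was called with each library left out, while *Cd5* lost its call without 2 libraries in turn (highest edgeR adjusted p = 0.106) and *Trac* without 4 (0.153) and with the replicate block (0.1). Markers of other cells were low. The sum of the 2 CD8 T cell markers was 11.3, 13.5 and 10.8 CPM against 14.6, 10.9 and 15.7 CPM, with *Cd8a* higher (log2 fold change 1.12) and *Cd8b1* not called (-0.20), and that of the 2 gamma delta T cell markers was 5.63, 5.67 and 5.2 CPM against 6.58, 7.38 and 6.86 CPM, with *Tcrg-C1* higher (1.23) and *Trdc* not called (-0.40), though lower in every *Pgam* ASO library. The calls of *Cd8a* and *Tcrg-C1* each ended without 2 libraries in turn (highest edgeR adjusted p = 0.1 and 0.0797), and that of *Cd8a* with the replicate block (0.0699). B cell markers (5 genes, led by *Cd79a*) summed to between 6.63 and 11.6 CPM, myeloid markers (6 genes, led by *Cd68*) to between 5.52 and 9.18 CPM, dendritic cell markers (3 genes, led by *Zbtb46*) to between 4.2 and 7.87 CPM and erythroid markers (4 genes, led by *Alas2*) to between 1.3 and 2.76 CPM over the 6 libraries, and none of these 4 lists had a called gene. The 4 NK cell markers summed to 68.6, 49.2 and 80.1 CPM against 43.8, 38.5 and 34.1 CPM, nearly all of it *Eomes*, which fell and which activated T cells also express, and *Nkg7*, while *Klrb1c* was at 0 in every library and *Ncr1* had at most 2 counts. Mast cell and basophil markers (6 genes, led by *Kit*) summed to between 6.54 and 7.93 CPM, with *Gata2* higher and *Kit* lower. Of the other markers in this list, *Cpa3* was higher without overlap and not called (log2 fold change 1.09, edgeR adjusted p = 0.0526), and *Mcpt8* (0, 2 and 3 counts against 16, 11 and 5) and *Fcer1a* (0, 2 and 0 against 4, 8 and 6), also without overlap, were too low to test. *Ms4a2* (2, 3 and 7 counts against 5, 8 and 3) overlapped between the groups and was not tested either. The calls of *Eomes*, *Gata2* and *Kit* ended without 3, 5 and 2 libraries in turn (highest edgeR adjusted p = 0.0893, 0.221 and 0.0851), and that of *Gata2* also with limma-voom, library size alone and the replicate block. The mitochondrial share of counts was 1.95%, 2.12% and 1.93% with the scrambled ASO and 1.24%, 1.44% and 1.32% with the *Pgam* ASO. The part of the T cell markers, of the NK cell markers, of the mast cell and basophil markers and of the mitochondrial share in the results above was not tested.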

How the data were processed

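RNA of 6 cultures of unsorted murine CD4 cells was sequenced, 3 with the scrambled and 3 with the *Pgam* ASO per the labels. The authors deposited estimated counts per Ensembl gene, made with Kallisto against GRCm38 per the submitters' processing notes, as whole numbers without normalization. The Kallisto version, the annotation release and the use of strand are not given in the sources used here. Coordinates, gene lengths and shared 31-base stretches were taken from GENCODE M21, and promoters from RefSeq.

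The whole table was fitted in edgeR 4.0.16 (R 4.3.3) with filterByExpr defaults, which kept 14936 genes, TMM scaling and the robust quasi-likelihood test with group as the only term, two-sided; p-values were adjusted after Benjamini-Hochberg and called under 0.05, and only rows of the members and of fixed lists are printed. Chain ratios were tested by exact permutation in scipy 1.17.1, and TPM were computed from counts and lengths. Correlations used log2 CPM with a prior count of 2 and genes with a mean of at least 1.

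Named genes were the members, *Pgam1*, *Pgam2*, *Foxp3*, genes of 9 pathway lists and 9 marker lists, the nearest tested gene on each side of a member, and the 5 most similar genes for each of *Il2*, *Il2ra* and *Il7r*. *Ntan1*, *Gm20489* and *Gm44876* are named for sharing reads. Members and lists were chosen with earlier results of these data known. Alternatives were DESeq2 1.42.0, limma-voom (limma 3.58.1), RLE factors, library size alone, no filter on low counts, at least 10 counts in every library, a block for replicate number, leaving out each library in turn, and counts summed over genes that share at least 10% of stretches. Floors of 3 counts cover counting error only. Of the listed naïve T cell genes and of the genes most like *Il2ra*, 1 each is not reported here.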

Additional observations from a re-analysis of the deposited data

How the results depend on the processing

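The direction of all 9 members was kept under every alternative run, and *Il2* and *Il4ra* were called under each of them. With limma-voom and with the replicate block, 1 member was called lower instead of 2, as *Il15ra* did not pass (log2 fold change -0.69, adjusted p = 0.0516, and -0.70, edgeR adjusted p = 0.0665). With a library left out, between 0 and 2 members were called lower. Log2 fold changes then ran from 3.26 to 4.20 for *Il2* and from 0.41 to 0.63 for *Il2ra*. They ran from -1.25 to -0.89 for *Il7r*, from -1.31 to -0.66 for *Il9r* and from -0.87 to -0.53 for *Il15ra*. With a library left out, the number of all genes called ran from 391 without *Pgam* ASO replicate 2 to 3484 without scrambled ASO replicate 3, beside 2565 with all 6 and 3732 with no filter on low counts; fewer libraries leave fewer degrees of freedom, and why single libraries differ was not tested. Deviations from the group means correlated across genes at r = 0.0534, -0.034 and -0.237 between libraries of equal replicate number. Between libraries of unequal number, r ran from -0.254 to 0.28. No pairing by number was seen in these values, which cannot show whether samples shared an animal or a culture day. With replicate number as a block 1235 genes were called. The log2 fold change of *Crlf2* ran from -0.12 to 0.0086 with a library left out, turning its sign without *Pgam* ASO replicate 2, and the cause was not tested. Of the other list counts, ratios and shares under an alternative, 65 moved, and 220 were the same or moved by less. For example, no activator of *Il2* was called higher with library size alone or the replicate block, beside 2 in the main test. Among the 220, 2 gamma chain cytokines other than IL-2 were called higher without *Pgam* ASO replicate 1, beside 3 in the main test. Chain ratios kept their direction with each library left out. The mean share of *Il4ra* among partner chains was 14.3% with the scrambled and 23.4% with the *Pgam* ASO, and 17.2% and 28.3% with summed exon lengths. With 3 libraries a group, exact tests cannot pass 0.05. Precision is limited by the 16 to 43 counts of *Il2* with the scrambled ASO and the 14 to 70 counts of *Il9r* over the 6 libraries.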
